A study of Mus musculus with 12 samples.

Results

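Transcripts that belong to developing T cells were measured in sorted thymic epithelial cells (TEC), the stromal cells that surround and select them. The 10 genes were listed by symbol, and all 10 were found both in the transcript files and in the authors' table of regularized log2 values (rlog), among 34547 genes in all. They were chosen by symbol with their TPM and rlog levels in these 12 libraries already known, so their levels and fold changes below are a description and carry no test, while a separate list of 49 other genes of the T lineage, also drawn up with results of these libraries known, was tested. RNA came from 12 libraries, 3 each of cortical TEC (cTEC) and medullary TEC (mTEC) from wild type (WT) C57BL/6 mice and from Aβ0/0 mice, which lack MHC class II because H2-Ab1, the gene of its β chain, is disrupted in every cell. Each library was 1 pool of cells from 5 to 10 mice aged 4 to 6 weeks. After depletion of CD45+ cells with beads, the sort took Epcam+CD45- cells, as cTEC where Ly51 was present and UEA1 binding absent and as mTEC in the reverse case, with dead cells left out by 7-AAD. CD45, encoded by Ptprc, is carried by thymocytes and other blood cells, so the gate selects against the cells that make the 10 transcripts.

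Thymocytes enter the thymus as CD4-CD8- cells, rearrange the T cell receptor (TCR) β chain, pair it with the pre-TCR α chain, become CD4+CD8+ in the cortex and then either die or mature to single positive cells that move to the medulla. Cortical epithelium includes thymic nurse cells that enclose CD4+CD8+ thymocytes. Among the 10 genes, Cd3e and Cd3g encode chains of the CD3 complex of the TCR, Lck encodes the kinase that starts TCR signalling, and Cd4, Cd8a and Cd8b1 encode the coreceptors. Ptcra encodes the pre-TCR α chain, Rag1 and Rag2 the recombinase that cuts TCR genes, and Dntt the terminal transferase (TdT) that adds bases at their junctions.

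The libraries went with their labels. H2-Ab1 was at 9060 to 9640 TPM in WT cTEC against 3150 to 3960 TPM in Aβ0/0 cTEC, and at 11500 to 12000 against 2470 to 3540 TPM in mTEC; TPM scales each library to a fixed total of transcripts and corrects for their length. Summed over a list of 9 cTEC genes, the level was 9220 to 26900 TPM in cTEC and 1850 to 2630 TPM in mTEC, and over 10 mTEC genes it was 2490 to 5210 and 18100 to 33700 TPM. The estimated counts per library added up to between 21710319 and 36139815, so that 3 counts, the upper limit that a count of 0 allows, corresponded to 0.0834 to 0.139 CPM, the counts scaled to a fixed library total. This limit and the standard errors cover the counting and the spread between 3 pools, and low input cDNA was amplified without molecular identifiers. In 3 libraries the thymocyte transcripts stood apart from their group. In TPM, all 10 were the lowest of the 3 in WT cTEC replicate 3. In CPM, Cd3g (47.2 against 39.2 and 41.7) and Ptcra (6.05 against 5.99 and 5.5) were instead the highest there, and the others were still the lowest. In WT mTEC replicate 3, from the same pool, all 10 were the highest of the 3 in TPM and in CPM. In Aβ0/0 mTEC replicate 2, Cd3e, Cd3g, Cd4 and Rag1 were close to 0 while Rag2 was at its highest for that group.

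The promoters and exons behind the results lie in GRCm38, and 4 promoters and 2 alternative exons are shown. Those of Lck and the exons were picked because transcripts that differ by them are compared below, and those of Rag1 and Ptcra because these genes belong to recombination and the pre-TCR stage. Promoter sequence came from RefSeq (GRCm38.p6), which held 9 promoters of 8 of the genes, with 2 for Lck, and none for Cd4 and Cd8b1. The 250 bases before the start are printed 5′ to 3′ on the strand of the gene. Capitals mark matches on either strand to 4 motifs, the E-box letters CAGCTG and CAGGTG, the Runx letters TGTGGT and the Ets letters AGGAAG, none of which overlap one another here. Lck has a proximal promoter, known for its use in immature thymocytes, and a distal one used more in mature T cells, and both are on the minus strand of chromosome 4.
Lck distal promoter, chr4:129573642-129573891: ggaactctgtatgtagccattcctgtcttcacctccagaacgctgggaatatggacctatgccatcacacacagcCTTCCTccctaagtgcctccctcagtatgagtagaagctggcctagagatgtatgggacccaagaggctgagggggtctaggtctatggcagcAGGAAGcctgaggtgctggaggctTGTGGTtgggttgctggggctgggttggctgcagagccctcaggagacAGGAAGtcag
Lck proximal promoter, chr4:129558373-129558622: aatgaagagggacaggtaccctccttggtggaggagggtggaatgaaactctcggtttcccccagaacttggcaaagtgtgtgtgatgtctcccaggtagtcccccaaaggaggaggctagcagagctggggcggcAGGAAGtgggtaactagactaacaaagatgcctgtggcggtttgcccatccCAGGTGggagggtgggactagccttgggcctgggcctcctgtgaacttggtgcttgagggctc
Rag1 promoter, chr2:101649533-101649782, minus strand: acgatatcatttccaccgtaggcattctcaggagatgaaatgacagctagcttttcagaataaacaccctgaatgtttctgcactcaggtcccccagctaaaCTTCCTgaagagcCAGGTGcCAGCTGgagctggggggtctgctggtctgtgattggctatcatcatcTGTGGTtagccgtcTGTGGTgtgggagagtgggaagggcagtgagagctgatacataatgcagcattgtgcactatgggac
Ptcra promoter, chr17:46763713-46763962, minus strand: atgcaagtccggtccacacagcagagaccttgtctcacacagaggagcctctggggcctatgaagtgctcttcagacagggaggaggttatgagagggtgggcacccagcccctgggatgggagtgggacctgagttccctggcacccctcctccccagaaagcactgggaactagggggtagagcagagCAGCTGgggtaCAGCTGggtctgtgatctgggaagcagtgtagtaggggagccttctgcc

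The Rag1 window held 5 matches to the motifs, and the Ptcra window held 2, both of CAGCTG. Over the 9 promoters, CAGCTG was in 2 (Rag1 and Ptcra), CAGGTG in 3 (Rag1, the Lck proximal promoter and Cd3g), TGTGGT in 2 (Rag1 and the Lck distal promoter) and AGGAAG in 4 (Rag1, both of Lck and Cd3e). Of all 32851 promoters of the same length, 13% held CAGCTG, 17.2% CAGGTG, 14% TGTGGT and 29.5% AGGAAG. These matches are letters in a window and not measured sites.

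The alternative exons are coding and on the plus strand. Exon 11 of Dntt-201, of 60 bases, is absent from Dntt-202, and its presence is the known long form of mouse TdT. Exon 4 of Cd8a-201, of 31 bases, is absent from Cd8a-202, and its absence gives the known short-tailed form of CD8α.
Dntt exon 11, chr19:41058567-41058626: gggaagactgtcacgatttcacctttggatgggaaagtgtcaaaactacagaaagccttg
Cd8a exon 4, chr6:71375888-71375918: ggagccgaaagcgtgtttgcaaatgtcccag

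Taken as a sum, the 10 transcripts were present in every library and were higher in cTEC than in mTEC of the same pool in 6 of 6 pools. The sum was 539, 463 and 234 TPM in WT cTEC replicates 1, 2 and 3 and 663, 781 and 608 TPM in Aβ0/0 cTEC. In mTEC it was 66.2, 90.8 and 146 TPM in WT and 59.6, 28.6 and 126 TPM in Aβ0/0. The cTEC libraries thus did not overlap the mTEC libraries, and Aβ0/0 cTEC lay above WT cTEC, whereas both genotypes overlapped in mTEC. Within a pool the sum was 8.13, 5.09 and 1.61 times as high in cTEC as in mTEC in WT replicates 1, 2 and 3, and 11.1, 27.3 and 4.82 times in Aβ0/0. The ratio of 1.61 came from the pool with the lowest WT cTEC sum and the highest WT mTEC sum. As a share of all estimated counts the 10 genes made up 0.0307% to 0.0969% of a cTEC library and 0.00479% to 0.0193% of an mTEC library. In such bulk samples, fewer thymocytes and less RNA per thymocyte cannot be told apart. By the study's list of yields, fewer cTEC than mTEC were sorted from every pool, so the subset and the number of cells put in cannot be told apart either. Each Aβ0/0 cTEC sort was also smaller than the WT cTEC sort of its number, and the largest cTEC sort was WT replicate 3. Whether the number of cells bears on the genotype difference in cTEC was not tested.

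**Figure D1:**
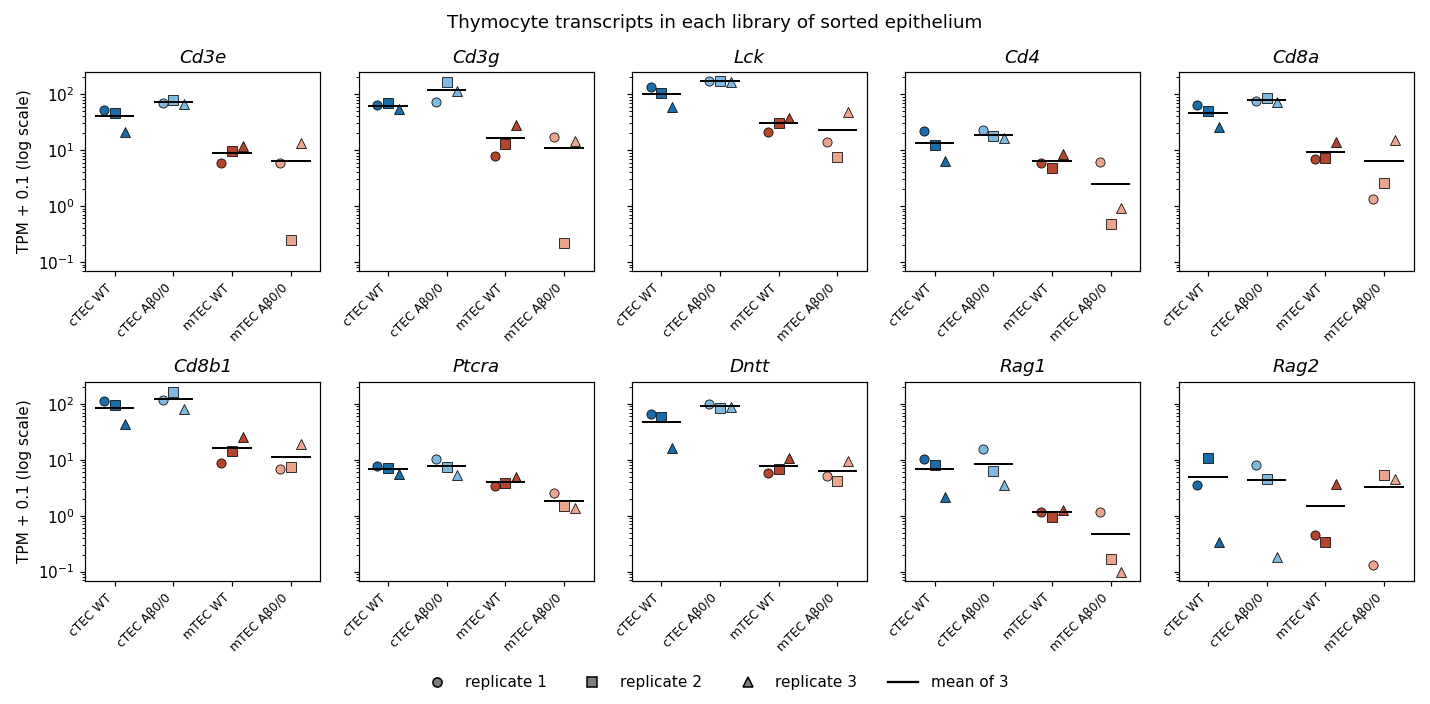
TPM plus 0.1 on a log axis for each of the 10 thymocyte transcripts, with 1 point per library (circle, square and triangle for replicates 1, 2 and 3) and a line at the mean of 3. In 8 of the 10 panels the WT cTEC points all lie above the WT mTEC points, with Cd4 and Rag2 as the exceptions, and the square of Aβ0/0 mTEC is close to 0 for Cd3e and Cd3g.

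The CD3 chains and Lck made up much of this signal. Cd3e (ENSMUSG00000032093, chr9:44998740-45009627, minus strand) was at 52.7, 46.8 and 20.6 TPM in WT cTEC and 68.6, 79.0 and 65.6 TPM in Aβ0/0 cTEC. In mTEC, Cd3e was at 5.75, 9.47 and 11.6 TPM in WT and 5.89, 0.144 and 13.1 TPM in Aβ0/0. Every cTEC value of Cd3e was above every mTEC value, and each Aβ0/0 cTEC value was above each WT one, while the value of Aβ0/0 mTEC replicate 2 rested on 10 counts. Cd3g (ENSMUSG00000002033, chr9:44969572-44980431, minus strand) was at 63.8, 69.9 and 53.7 TPM in WT cTEC and 71.4, 166 and 114 TPM in Aβ0/0 cTEC. Its mTEC values were 7.74, 12.6 and 27.9 TPM in WT and 17.4, 0.119 and 14.4 TPM in Aβ0/0, the 0.119 standing for 2 counts. The same 2 separations as for Cd3e held for Cd3g, with Aβ0/0 cTEC above WT cTEC by a narrow margin between 69.9 and 71.4 TPM. Lck (ENSMUSG00000000409, chr4:129548344-129573641, minus strand) reached 136, 106 and 58.7 TPM in WT cTEC and 171, 173 and 163 TPM in Aβ0/0 cTEC. In mTEC, Lck was at 21.1, 30.6 and 38.1 TPM in WT and 13.7, 7.53 and 48.5 TPM in Aβ0/0. Lck was the highest of the 10 in all 4 groups by mean TPM, it was above Cd8b1, the next, in each of the 12 libraries, and its 3 Aβ0/0 cTEC values lay within 1.06-fold of each other.

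The coreceptor genes followed the same order of groups, but Cd4 did so less clearly. Cd8a (ENSMUSG00000053977, chr6:71373427-71379173, plus strand) was at 65.3, 49.1 and 26.1 TPM in WT cTEC and 76.2, 84.0 and 71.5 TPM in Aβ0/0 cTEC. Its mTEC values were 6.71, 7.23 and 13.8 TPM in WT and 1.26, 2.5 and 15.2 TPM in Aβ0/0. Cd8a therefore separated cTEC from mTEC in both genotypes, and Aβ0/0 from WT in cTEC. Cd8b1 (ENSMUSG00000053044, chr6:71322788-71337494, plus strand) was at 113, 94.5 and 44.4 TPM in WT cTEC and 119, 160 and 80.4 TPM in Aβ0/0 cTEC. In mTEC it was at 8.73, 14.5 and 25.6 TPM in WT and 6.83, 7.22 and 19.0 TPM in Aβ0/0. For Cd8b1 the subsets did not overlap but the genotypes did, since Aβ0/0 cTEC replicate 3 was below WT replicates 1 and 2. Cd4 (ENSMUSG00000023274, chr6:124864692-124888221, minus strand) was at 22.0, 12.4 and 6.39 TPM in WT cTEC and 22.5, 17.8 and 16.5 TPM in Aβ0/0 cTEC. In mTEC, Cd4 was at 5.69, 4.79 and 8.47 TPM in WT and 5.99, 0.381 and 0.814 TPM in Aβ0/0. The WT subsets overlapped for Cd4, because WT cTEC replicate 3 was below WT mTEC replicate 3. Put as a ratio within a library, Cd8a was 2.97 to 4.08 times Cd4 in WT cTEC, 3.39 to 4.73 times in Aβ0/0 cTEC and 1.18 to 1.63 times in WT mTEC. In Aβ0/0 mTEC that ratio was 0.21, 6.56 and 18.7 in replicates 1, 2 and 3, a spread in which no level can be set.

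Among the genes of the pre-TCR stage and of recombination, Ptcra, Rag1 and Rag2 were lower by mean TPM than the others of the 10 in every group but Aβ0/0 mTEC, whereas Dntt was near the level of Cd3e. Dntt (ENSMUSG00000025014, chr19:41029275-41059525, plus strand) was at 64.7, 58.0 and 16.4 TPM in WT cTEC and 100, 83.3 and 86.9 TPM in Aβ0/0 cTEC. Its values in mTEC were 5.74, 6.77 and 10.7 TPM in WT and 5.10, 4.01 and 9.43 TPM in Aβ0/0. Dntt had the clearest gap between subsets in Aβ0/0, where the lowest cTEC value was 83.3 and the highest mTEC value 9.43 TPM. Ptcra (ENSMUSG00000036858, chr17:46755663-46763712, minus strand) was at 7.66, 6.90 and 5.36 TPM in WT cTEC and 10.2, 7.35 and 5.30 TPM in Aβ0/0 cTEC. In mTEC, Ptcra was at 3.31, 3.76 and 4.74 TPM in WT and 2.40, 1.39 and 1.3 TPM in Aβ0/0, from 34 to 145 counts. Ptcra was the only one of the 10 whose WT and Aβ0/0 mTEC values did not overlap, with WT higher.

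Rag1 and Rag2, which lie side by side and are needed together for recombination, did not move together from library to library. Rag1 (ENSMUSG00000061311, chr2:101638282-101649501, minus strand) had 1081, 1135 and 334 estimated counts in WT cTEC and 1898, 1151 and 583 in Aβ0/0 cTEC. In mTEC, Rag1 had 119, 161 and 204 counts in WT and 129, 12 and 0 in Aβ0/0. On the TPM scale Rag1 was 2.04 to 15.7 in cTEC and at most 1.18 in mTEC, so the subsets did not overlap. Rag2 (ENSMUSG00000032864, chr2:101624718-101632529, plus strand) had 114, 493 and 13 counts in WT cTEC and 328, 277 and 7 in Aβ0/0 cTEC. Its counts in mTEC were 18, 18 and 203 in WT and 2, 339 and 242 in Aβ0/0. The ratio of Rag1 to Rag2 in TPM ran from 0 to 42.3 over the libraries, with the highest ratio in Aβ0/0 cTEC replicate 3 and the lowest values in Aβ0/0 mTEC replicates 2 and 3, which had Rag2 at 5.22 and 4.39 TPM and Rag1 at 0.0648 and 0 TPM. A count of 0 for Rag1 in Aβ0/0 mTEC replicate 3 allows up to 3 counts, or 0.11 CPM. Both genes overlap B230118H07Rik, which shares 208 exonic bases with Rag2 on the opposite strand and 80 with Rag1 on the same strand and was itself at 25.2 to 56.2 TPM. Its transcript that overlaps Rag2, B230118H07Rik-208, was at 0 counts in both Aβ0/0 mTEC libraries with high Rag2 and had 158 counts in Aβ0/0 cTEC replicate 2. No use of strand is stated for the counting, so reads of overlapping genes on opposite strands cannot be told apart, which also touches 135 exonic bases that Cd3e shares with the antisense gene Gm48719.

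**Figure D2:**
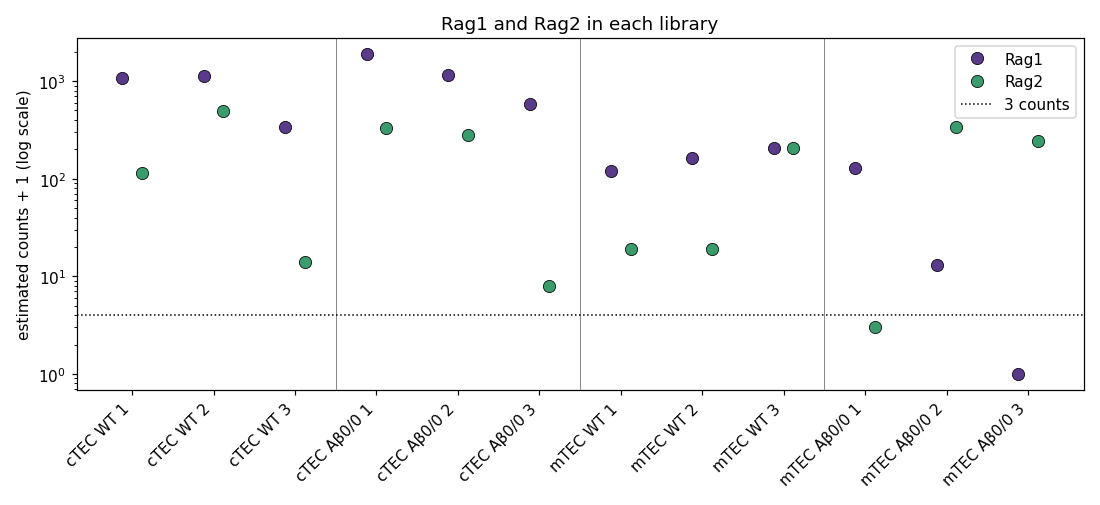
Estimated counts plus 1 on a log axis for Rag1 (purple) and Rag2 (green) in each of the 12 libraries, with a dotted line at 3 counts. In these counts, which are not corrected for transcript length, Rag1 is above Rag2 in 10 of 12 libraries, by 1 count in WT mTEC replicate 3. It is far below Rag2 in Aβ0/0 mTEC replicates 2 and 3. In TPM, Rag1 was also below Rag2 in WT cTEC replicate 2 (ratio 0.731) and WT mTEC replicate 3 (ratio 0.331).

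Ordered by mean TPM, Lck, Cd8b1 and Cd3g were the first 3 in each group, and Rag1, Rag2 and Ptcra were the last 3 in both cTEC groups and in WT mTEC. Most neighbours in this order had overlapping ranges. The exceptions were Lck over Cd8b1, Cd3e over Cd4 and Cd4 over Rag1 in Aβ0/0 cTEC, Cd4 over Ptcra in WT mTEC and Ptcra over Rag1 in Aβ0/0 mTEC. Within the sum, the makeup differed between the WT subsets for Cd4, which took 2.69% to 4.09% of the sum in WT cTEC and 5.27% to 8.58% in WT mTEC, and for Ptcra, which took 1.42% to 2.29% and 3.25% to 4.99%. With 3 libraries against 3, a two-sided exact permutation test cannot go below 0.1, so these shares were not tested. Lck took 23.0% to 25.2% of the sum in WT cTEC and 26.2% to 33.7% in WT mTEC. Cd8b1 went the other way, with 19.0% to 21.0% in WT cTEC and 13.2% to 17.6% in WT mTEC, and Cd8a likewise with 10.6% to 12.1% and 7.96% to 10.1%.

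The comparison of cTEC with mTEC asks where in the epithelium these transcripts were carried. In WT, the fitted levels of all 10 were higher in cTEC, by 5.64-fold for Rag1 (log2 2.5 ± 0.47, SE), 5.2-fold for Dntt (log2 2.38 ± 0.44), 4.56-fold for Cd8b1 (log2 2.19 ± 0.44), 4.48-fold for Cd8a (log2 2.16 ± 0.38), 3.95-fold for Cd3e (log2 1.98 ± 0.45), 3.57-fold for Cd3g (log2 1.83 ± 0.49) and 3.04-fold for Lck (log2 1.61 ± 0.30). The differences were smaller against their errors for Rag2 (log2 1.39 ± 1.3), Cd4 (log2 0.84 ± 0.40) and Ptcra (log2 0.66 ± 0.53). The median over the 10 was 1.91 on the log2 scale, where it was -0.06 over all 18667 genes tested. With edgeR, 7 of the 10 had an adjusted p under 0.05, all higher in cTEC, against 26.8% of all genes in either direction and 8.81% in that one, 7 had an unadjusted p under 0.05, against 37.2%, and 8 of 10 lay above mTEC without overlap on the CPM scale and 0 below, against 17.4% and 29.5% of genes. The counts in TPM were the same, against 15.9% and 28.4% of genes. Since these libraries were known when the 10 were listed, nothing is read from those counts. In a fit of all 12 libraries 3 of the 10 passed (Cd8b1, Dntt and Lck), against 14.2% of genes, and without WT mTEC replicate 1 or 2 there were 5 (Cd8a, Cd8b1, Dntt, Lck and Rag1), against 17.7% of genes in either fit. The same 7 passed without WT cTEC replicate 3 and without WT mTEC replicate 3, against 38.1% and 18.3% of genes. In these 2 settings the log2 ratio of the summed level was 2.31 and 2.39 in place of 2.03.

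In Aβ0/0 the fitted differences were larger for all but Rag2, and their errors were wider for all but Dntt. Rag1 was 21.2-fold higher in cTEC (log2 4.40 ± 1.61), Dntt 12.6-fold (log2 3.65 ± 0.39), Cd8a 10.7-fold (log2 3.41 ± 0.85), Cd3e 10.3-fold (log2 3.37 ± 1.03), Cd8b1 9.67-fold (log2 3.27 ± 0.56) and Lck 7.06-fold (log2 2.82 ± 0.57). Cd3g (log2 3.37 ± 1.26), Cd4 (log2 3.11 ± 1.26) and Ptcra (log2 1.98 ± 1.03) were also higher, and Rag2 showed no direction (log2 -0.08 ± 1.69). Without overlap on the CPM scale, 9 of the 10 were higher in cTEC and 0 lower, against 13% and 15% of genes, and the counts in TPM were the same, against 16.3% and 12.7%. The median of the 10 was 3.32, against -0.03 over 15687 genes tested. An adjusted p under 0.05 was reached by 3 of them (Dntt, Cd8b1 and Lck), against 5.6% of all genes in either direction and 2.15% in that one, by 1 of them (Dntt) with the pool as a block by 5 in a fit of all 12 libraries and by 7 with DESeq2, for which the shares of all genes were 4.02%, 9.35% and 13.4%, and again these are given only as counts. Leaving out 1 library gave between 1 and 4, with 1 (Dntt) without Aβ0/0 cTEC replicate 2 or Aβ0/0 mTEC replicate 2, against 2.01% to 2.79% of genes in these fits. The fitted difference of Rag2 turned to between 0.16 and 0.55 without Aβ0/0 cTEC replicate 3 or Aβ0/0 mTEC replicates 2 or 3. Without Aβ0/0 mTEC replicate 2, the log2 ratio of the summed level between subsets was 2.88 in place of 3.26.

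**Figure D3:**
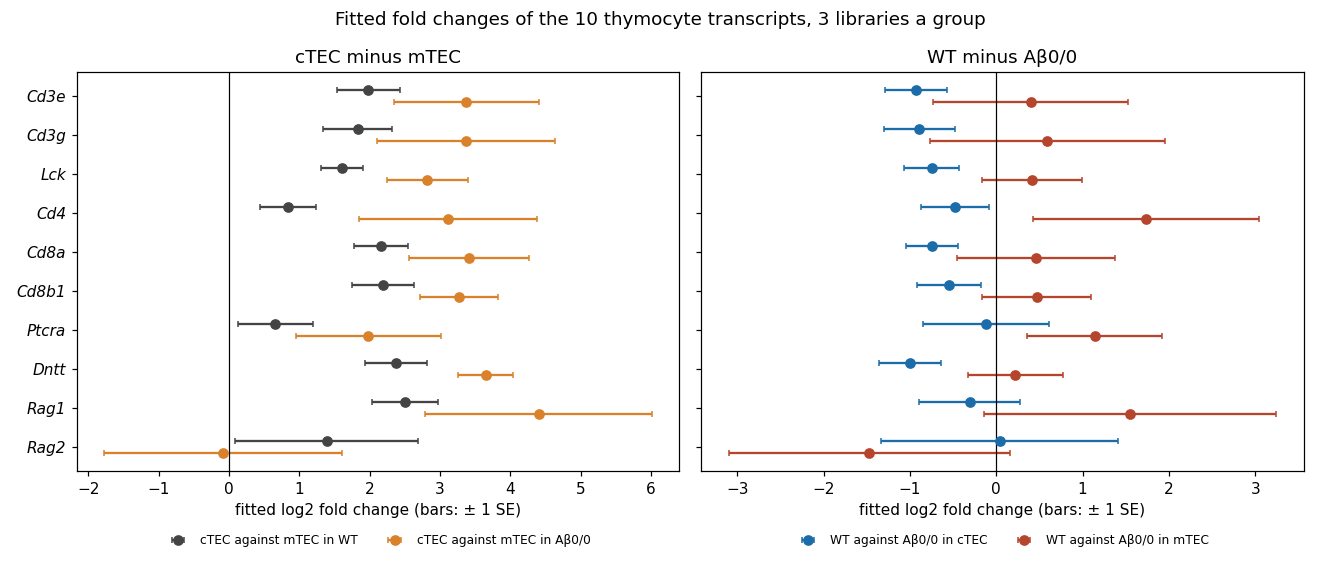
Fitted log2 fold changes of the 10 thymocyte transcripts with bars of 1 SE, cTEC minus mTEC on the left (grey WT, orange Aβ0/0) and WT minus Aβ0/0 on the right (blue cTEC, red mTEC). On the left all points but Rag2 in Aβ0/0 are above 0, and on the right 9 of 10 cTEC points are below 0 and 9 of 10 mTEC points are above 0 with wide bars.

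The 49 other genes of the T lineage, which hold none of the 10, were tested in the same comparison. They come from the same libraries and the list was chosen with results of these data known, so its counts are not independent evidence of the direction of the 10. In WT, 47 could be tested, of which 17 were higher in cTEC and 3 were higher in mTEC (edgeR, adjusted p under 0.05), where 8.81% of all genes were higher in cTEC and 18% higher in mTEC. The list had a median of 1.01 on the log2 scale. Those that rose in cTEC included the constant regions of the TCR β chain, Trbc1 (5.48-fold, 229 ± 55.3 against 37.6 ± 26.7 TPM, SD, adjusted p = 0.009) and Trbc2 (4.02-fold, 447 ± 133 against 101 ± 40.7 TPM, adjusted p = 0.00518). Lat, the adaptor that Lck signalling reaches through ZAP-70, was 5.49-fold higher (50.9 ± 24.6 against 8.29 ± 3.33 TPM, adjusted p = 0.00739). The γδ genes Tcrg-C1 (4.75-fold, adjusted p = 0.0142) and Trdc (4.37-fold, adjusted p = 0.0396) also rose, the latter at 3.17 ± 1.63 against 0.651 ± 0.313 TPM, and so did Themis (4.06-fold, adjusted p = 0.0399), which is needed for selection.

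Of the genes named for all comparisons, Ptprc (2.95-fold, adjusted p = 0.0151), Cd3d (2.72-fold, adjusted p = 0.0409) and Trac (1.97-fold, adjusted p = 0.0447) were higher in WT cTEC. Ptprc, the CD45 gene of the sort gate, was at 18.2, 10.9 and 5.53 TPM in WT cTEC and 3.77, 3.70 and 4.79 TPM in WT mTEC. The 3 genes that were higher in WT mTEC were Runx3 (38.3-fold, 13.4 ± 3.88 against 0.381 ± 0.255 TPM, adjusted p = 0.000665), Ccr7 (8.13-fold, 17.8 ± 3.91 against 2.36 ± 0.981 TPM, adjusted p = 0.00142) and Il2ra (3.41-fold, 11.1 ± 0.679 against 3.26 ± 2.74 TPM, adjusted p = 0.0321), the last named after its values were seen. Runx3 is a transcription factor of the CD8 lineage and of several other cell types, Ccr7 is the receptor that brings positively selected thymocytes to the medulla, and Il2ra is the α chain of the IL-2 receptor. Zbtb7b, a factor of the CD4 lineage, was at 3.28 ± 2.07 TPM in WT cTEC and 6.14 ± 1.75 TPM in WT mTEC and did not pass the test. With the pool as a block, 14 of the list were called, against 20.5% of genes, 10 higher in cTEC in place of 17 and 4 higher in mTEC in place of 3. All 10 had been called without the block, and of the genes named above Trdc, Themis, Cd3d and Trac were no longer called, with an adjusted p of 0.104, 0.0833, 0.0599 and 0.0992 in that fit. The count of 20 T-lineage genes became 11 without WT cTEC replicate 1, against 25% of all genes in either direction, which it did not exceed. It was 10, 9 and 13 without WT mTEC replicates 1, 2 and 3, against 17.7%, 17.7% and 18.3% of genes. In a fit of all 12 libraries it was 9, against 14.2% of genes, and without WT cTEC replicate 3 it was 28, against 38.1%. The share of all genes called thus moved as well.

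In Aβ0/0, 46 of the 49 could be tested, and 10 were higher in cTEC and 0 lower (edgeR), where 2.15% of all genes were higher in cTEC and 3.45% lower. At an unadjusted p under 0.05 there were 25 in either direction, against 17.8% of genes, and DESeq2 called 24, of which 22 were higher in cTEC, where it called 13.4% of all genes, 5.42% as higher and 8.01% as lower in cTEC. The list's median was 1.94. Trbc1 was 10.3-fold higher (373 ± 124 against 33.2 ± 15.7 TPM, adjusted p = 0.00875), Trbc2 8.84-fold (712 ± 214 against 72.6 ± 51.6 TPM, adjusted p = 0.0219) and Ptprc 7.89-fold (33.2 ± 13 against 3.53 ± 1.08 TPM, adjusted p = 0.0264). Ptprc was at 40.0, 18.2 and 41.3 TPM in Aβ0/0 cTEC and at 2.35, 4.46 and 3.79 TPM in Aβ0/0 mTEC. Cd3d (45.4 ± 14.2 against 9.77 ± 7 TPM), Ccr7 (3.19 ± 2.78 against 4.69 ± 1.16 TPM) and Zbtb7b (5.46 ± 1.75 against 4.51 ± 2.56 TPM) did not pass the test, nor did Trac, at 71.3, 46.1 and 36.2 against 13.5, 0.0859 and 12.8 TPM, the 0.0859 standing for 2 counts. The transcription factor Tcf7 was 10.7-fold higher (165 ± 34.5 against 14.3 ± 11.1 TPM, adjusted p = 0.0416), the costimulatory receptor Cd27 11.3-fold (adjusted p = 0.0436) and the small GTPase Rhoh 9.74-fold (adjusted p = 0.0359).

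Some of the large fitted differences rested on few counts in mTEC. Tespa1, which acts in TCR signalling of thymocytes, had 1032 counts over the 3 Aβ0/0 cTEC libraries and 3 counts over the 3 mTEC libraries, a CPM ratio of 290 with a 95% counting interval (exact binomial) of 98.9 to 1410. Lat was at 88.4 ± 27.3 against 1.93 ± 2.58 TPM. The adjusted p was 0.0385 for Tespa1 and 0.0428 for Lat. With the pool as a block (edgeR), 2 of the list were called in Aβ0/0, near the share of 4.02% among all genes. One of them was Trbc1 (adjusted p = 0.0457), while Trbc2, Ptprc, Rhoh, Lat, Tcf7, Cd27 and Tespa1 had an adjusted p of 0.0641 to 0.119. Leaving out any 1 of the 6 libraries gave between 1 and 6, with 1 without Aβ0/0 cTEC replicate 1, 1 without replicate 2 and 2 without replicate 3, and with 6, 5 and 3 without Aβ0/0 mTEC replicates 1, 2 and 3. Of all genes, 2.34%, 2.08% and 2.01% were called without Aβ0/0 cTEC replicates 1, 2 and 3. Without Aβ0/0 mTEC replicates 1, 2 and 3 the shares were 2.79%, 2.23% and 2.15%. The counts of 1 were thus near the share of all genes.

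The comparison of genotypes asks whether the thymocyte transcripts differed without MHC class II. In cTEC, 9 of the 10 had lower fitted levels in WT than in Aβ0/0. Dntt was 2.00-fold higher in Aβ0/0 (log2 WT minus Aβ0/0 -1.0 ± 0.36, SE), Cd3e 1.91-fold (-0.93 ± 0.36), Cd3g 1.85-fold (-0.89 ± 0.41), Lck 1.68-fold (-0.75 ± 0.32), Cd8a 1.67-fold (-0.74 ± 0.30), Cd8b1 1.47-fold (-0.55 ± 0.37) and Cd4 1.39-fold (-0.48 ± 0.39). Rag1 (-0.31 ± 0.58), Ptcra (-0.12 ± 0.73) and Rag2 (0.04 ± 1.37) had errors larger than their differences. The median was -0.65, against 0.06 over all 15432 genes tested. On the TPM scale Cd3e, Cd3g, Cd8a, Dntt and Lck did not overlap between genotypes. On the CPM scale 4 of the 10 lay apart with WT lower, against 3.58% of genes, and 0 with WT higher, against 4.12%, and none of the 10 had an adjusted p under 0.05 with edgeR or DESeq2, against 0.0194% of genes with edgeR. At an unadjusted p under 0.05 there were 4 of the 10, against 2.16% of genes. Nothing is read from these counts. Without WT cTEC replicate 3, the log2 ratio of the summed level was -0.45 in place of -0.73. The fitted difference of Rag1 turned to 0.05 without that library and to 0.31 without Aβ0/0 cTEC replicate 1, where that of Ptcra turned to 0.01. That of Rag2 turned to -1.32 without WT cTEC replicate 2 and to -0.53 without Aβ0/0 cTEC replicate 3.

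Of the other T-lineage genes, 46 were tested between genotypes in cTEC and 0 were called by edgeR, with 3 at an unadjusted p under 0.05 and 2 called by DESeq2 (Cd69 and Ptprc), both lower in WT, where DESeq2 called 0.124% of all genes as lower and 0.274% as higher in WT. Their median was -0.62, and 9 of the 46 had a higher fitted level in WT, where 8516 of 15432 genes did. Cd69, an early activation marker that thymocytes gain with TCR signalling, was at 3.38, 4.15 and 1.62 TPM in WT cTEC and 17.1, 12.6 and 13.8 TPM in Aβ0/0 cTEC and was named after its values were seen. It did not overlap between genotypes and was 4.86-fold higher in Aβ0/0 (log2 WT minus Aβ0/0 -2.28 ± 0.57, SE), with an adjusted p of 0.728 with edgeR and 0.00352 with DESeq2. Trbc2 was at 522, 525 and 294 TPM in WT cTEC and 696, 934 and 507 TPM in Aβ0/0 cTEC, and Trbc1 at 266, 255 and 165 against 250, 497 and 374 TPM, which overlapped. Ptprc was at 18.2, 10.9 and 5.53 TPM in WT and 40.0, 18.2 and 41.3 TPM in Aβ0/0, meeting at 18.2 TPM, with an adjusted p of 0.695 with edgeR and 0.0467 with DESeq2. On the CPM scale 12 of the 46 lay apart with WT lower, against 3.58% of genes, and 0 with WT higher, against 4.12%. On the TPM scale these counts were 7, against 3.47% of genes, and 0, against 3.46%.

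In mTEC, the fitted differences of the 10 thymocyte transcripts between genotypes were smaller than their errors for all but Cd4 and Ptcra. The fitted differences, WT minus Aβ0/0, were 1.73 ± 1.31 for Cd4, 1.55 ± 1.69 for Rag1, 1.14 ± 0.78 for Ptcra, 0.59 ± 1.36 for Cd3g and -1.47 ± 1.63 for Rag2 on the log2 scale (SE). For Cd8b1, Cd8a, Lck, Cd3e and Dntt they were 0.47 ± 0.63, 0.46 ± 0.91, 0.41 ± 0.58, 0.40 ± 1.13 and 0.22 ± 0.55. Without Aβ0/0 mTEC replicate 2 the difference of Cd3e turned to -0.16, without Aβ0/0 mTEC replicate 1 that of Cd8a turned to -0.03, and without WT mTEC replicate 3 those of Cd3e, Cd3g, Cd8b1 and Dntt turned to between -0.11 and -0.02. Other differences grew: without Aβ0/0 mTEC replicate 1 that of Cd4 was 4.69 and that of Rag1 4.64, in place of 1.73 and 1.55. None of the 10 passed with edgeR, against 5.66% of 18636 genes (5.32% higher and 0.338% lower in WT), with 0 at an unadjusted p under 0.05, against 15.3%, and 0 with DESeq2, and 1 (Cd4) passed without Aβ0/0 mTEC replicate 1, where 12% of all genes did. Nothing is read from these counts of the 10. Of the other T-lineage genes, 0 of 47 were called by edgeR, with 4 at an unadjusted p under 0.05 and 3 called by DESeq2, all higher in WT, where DESeq2 called 9.81% of all genes and 7.46% as higher in WT. Without Aβ0/0 mTEC replicate 1, edgeR called 4 of the 47, 3 of them higher in WT, against 12% and 10.5% of genes, so that neither count stood above the share of all genes. On the CPM scale 1 of the 10 and 11 of the 47 lay apart with WT higher, against 18% of genes, and 0 of the 10 and 1 of the 47 with WT lower, against 8.52%. On the TPM scale 12 of the 47 lay apart with WT higher, against 19.4% of genes, and 1 with WT lower, against 6.33%. The study's list of yields sets WT and Aβ0/0 pools of the same number side by side but does not say that they were sorted together. With that number as a block, 0 genes were called between genotypes in mTEC, and the difference of Cd4 was 3.62 and that of Rag1 3.61. By the same list, fewer mTEC were sorted from every Aβ0/0 pool than from every WT pool, so the genotype and the number of cells put in cannot be told apart in mTEC.

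Whether the genotypes differed by another amount in cTEC than in mTEC was fitted as an interaction over the 12 libraries. It was negative for 9 of the 10, from -1.07 ± 0.73 for Cd8b1 to -2.28 ± 1.36 for Cd4 on the log2 scale (SE), and 1.51 ± 2.35 for Rag2, with a median of -1.29 against 0.04 over 19461 genes. None of the 10 and 0 of the 47 other T-lineage genes were called by edgeR, where 0.0103% of genes were, 0.00514% in each direction. At an unadjusted p under 0.05 there were 0 of the 10 and 5 of the 47, against 6.9% of genes, and DESeq2 called 0 of the 10 and 2 of the 47, both negative, where it called 1.54% of genes and 0.95% as negative. Nothing is read from the counts of the 10. For the other T-lineage genes, edgeR did not show that the cTEC to mTEC difference differed between genotypes.

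The transcripts that Kallisto assigned to each gene were compared as shares, which the choice of the 10 did not use. Lck-202 begins at the distal promoter printed above, Lck-208 at the proximal one and Lck-201 19 bases before it. Lck-201 held 41.9% to 61.5% of the Lck counts in WT cTEC and 59.7% to 70.4% in Aβ0/0 cTEC, and the distal Lck-202 held 23.3% to 37.0% and 15.0% to 29.8%. In WT mTEC, Lck-201 held 49.6% to 68.7% and Lck-202 18% to 45.4%. These ranges overlapped between all groups for Lck-202. In Aβ0/0 mTEC the share of Lck-202 was 76.8%, 0% and 22.4% in replicates 1, 2 and 3, from 257, 0 and 308 counts, so that a group level cannot be given. Lck-208 (at most 24.9%, in WT cTEC replicate 3) and the short Lck-207, annotated with a retained intron (at most 12.8%), made up most of the rest.

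Dntt-202, without the 60-base exon, was the main Dntt transcript in 11 of 12 libraries. Dntt-201, with the exon, held 15.3% to 34.7% of the counts in WT cTEC, 18.7% to 32.1% in Aβ0/0 cTEC and 0% to 23.1% in WT mTEC. In Aβ0/0 mTEC replicate 2 it held 96.7% of 230 counts, where the other two libraries of that group had 12% and 34.4%. For Cd8a, the transcript annotated with a retained intron, Cd8a-203, held 65.2% to 75.5% of the counts in cTEC and 67.6% to 72.7% in WT mTEC. Among the coding pair, Cd8a-201 with the 31-base exon held 13.6% to 15.6% in WT cTEC and Cd8a-202 without it 10.2% to 18.6%, and in Aβ0/0 cTEC they held 5.34% to 16.2% and 9.47% to 22.0%. In Aβ0/0 mTEC replicate 1, where Cd8a had 55 counts, Cd8a-201 held 0% and Cd8a-202 60.9%.

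Among the remaining genes, Cd3g-201 held 95.6% or more of the Cd3g counts in cTEC and Cd4-201 held 88.4% or more of the Cd4 counts there. Cd3e-201 held 69.7% to 94.7% in cTEC, with the intron-retaining Cd3e-202 at 4.36% to 21.1%, and Cd3e-202 took 100% of the 10 counts in Aβ0/0 mTEC replicate 2. Cd4-202, also annotated with a retained intron, took 55.5% of 7 counts and 58.3% of 22 counts in Aβ0/0 mTEC replicates 2 and 3, against at most 1.98% in WT mTEC. Among the 6 libraries with 203 or more Rag2 counts, Rag2-202 held more than Rag2-201 (50.2% to 65.9%) in all but Aβ0/0 mTEC replicate 3 (40.2%). Cd8b1, Rag1 and Ptcra had 1 transcript each. The transcripts of a gene share most of their sequence, and reads of 50 bp at a few counts leave such shares loosely set.

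**Figure D4:**
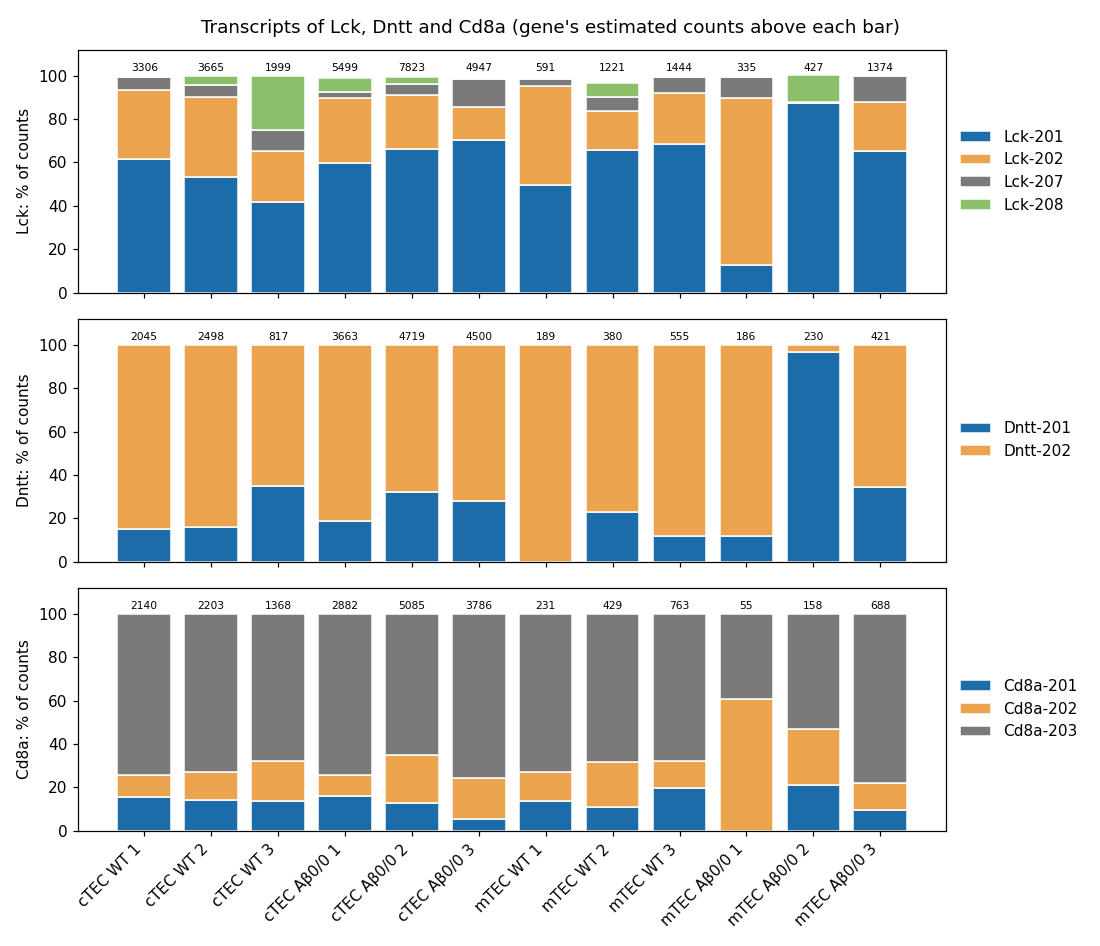
Share of the estimated counts of Lck, Dntt and Cd8a assigned to each transcript, as stacked bars in % for the 12 libraries, with the counts of the gene above each bar and transcripts under 5% in every group left out. Aβ0/0 mTEC replicates 1 and 2 have the highest and the lowest share of Lck-202, at 76.8% and 0%, and Aβ0/0 mTEC replicate 2 has the highest share of Dntt-201, at 96.7%.

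Genes with a profile most like the mean of the 10 over the 12 libraries were sought by the root mean square difference of centred log2(CPM + 0.5) among 19451 genes, whose median difference was 1.57. Trbc2 was nearest at 0.34, followed by Tm6sf1 (0.393), the TCR β variable gene Trbv3 (0.405), Tinagl1 (0.41), the leukocyte actin regulator Coro1a (0.453), Mfsd12 (0.455), Dmtn (0.457), Trbv19 (0.461), Nqo1 (0.492) and Ptprcap (0.498), which encodes a protein bound to CD45. Tinagl1 and Nqo1 were among the higher of these, at 222 and 200 TPM in WT cTEC and 37.5 and 37.4 TPM in WT mTEC by group means. The 12 points share their libraries with the 10 genes, and the measure is a description with no test.

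Markers of mature T cells were low in the same libraries. Foxp3, the factor of regulatory T cells, was at most at 0.201 TPM, Cd40lg at most at 1.18 TPM with 0 TPM in every Aβ0/0 library, and Il7r at most at 5.13 TPM, all 3 singled out after their values were seen. Ccr7 was at 14.0 to 21.8 TPM in WT mTEC and 3.52 to 5.84 TPM in Aβ0/0 mTEC, and the other T-lineage genes together summed to 445 to 572 and 243 to 495 TPM there and to 885 to 2460 TPM in cTEC.

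Other blood cell genes also differed in level between the groups. The list of 10 haematopoietic genes, which includes Ptprc and Coro1a, summed to 780 to 1070 TPM in WT cTEC and 1690 to 1780 TPM in WT mTEC. In Aβ0/0 it was higher in cTEC than in mTEC in each of the 3 pools, as were the 10 thymocyte transcripts, at 1000, 1220 and 1220 TPM in cTEC and 813, 1120 and 865 TPM in mTEC. The 8 granulocyte genes summed to 24.3 to 510 TPM in WT cTEC and 1410 to 2010 TPM in WT mTEC, with Ngp and Retnlg at 3 counts or fewer in every WT cTEC library. The 8 macrophage genes summed to 57.7 to 358 and 644 to 710 TPM, and the 8 dendritic cell genes to 1.63 to 5.32 and 23.2 to 32.2 TPM, with Itgax, Clec9a and Cd209a at 3 counts or fewer in WT cTEC. In Aβ0/0, the granulocyte list summed to 27.1 to 80.7 TPM in cTEC and 187 to 426 TPM in mTEC, the macrophage list to 10.5 to 43.8 and 114 to 753 TPM and the dendritic list to 1.1 to 6.47 and 15.0 to 16.9 TPM. All genes of the macrophage, granulocyte and dendritic lists were above 3 counts in a WT mTEC library, and in Aβ0/0 mTEC Adgre1, C1qc, Ngp, Elane, Retnlg, Itgax, Clec9a and Cd209a were not.

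The 8 B cell genes summed to 56.5, 243 and 516 TPM in WT cTEC, highest in replicate 3 where the thymocyte transcripts were lowest, and to 70.0 to 88.3 TPM in Aβ0/0 cTEC, 204 to 234 TPM in WT mTEC and 103 to 154 TPM in Aβ0/0 mTEC. The 7 erythroid genes ranged from 0.678 to 1490 TPM in cTEC and from 209 to 1170 TPM in mTEC. The 7 fibroblast genes moved with the subset, at 1650 to 2550 TPM in cTEC and 115 to 265 TPM in mTEC, and the 6 endothelial genes summed to 18.5 to 71.0 and 8.05 to 29.1 TPM. The 6 genes common to TEC summed to 15700 to 24100 TPM in cTEC and 14300 to 24300 TPM in mTEC. The part of these other cells in the thymocyte signal was not tested.

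**Figure D5:**
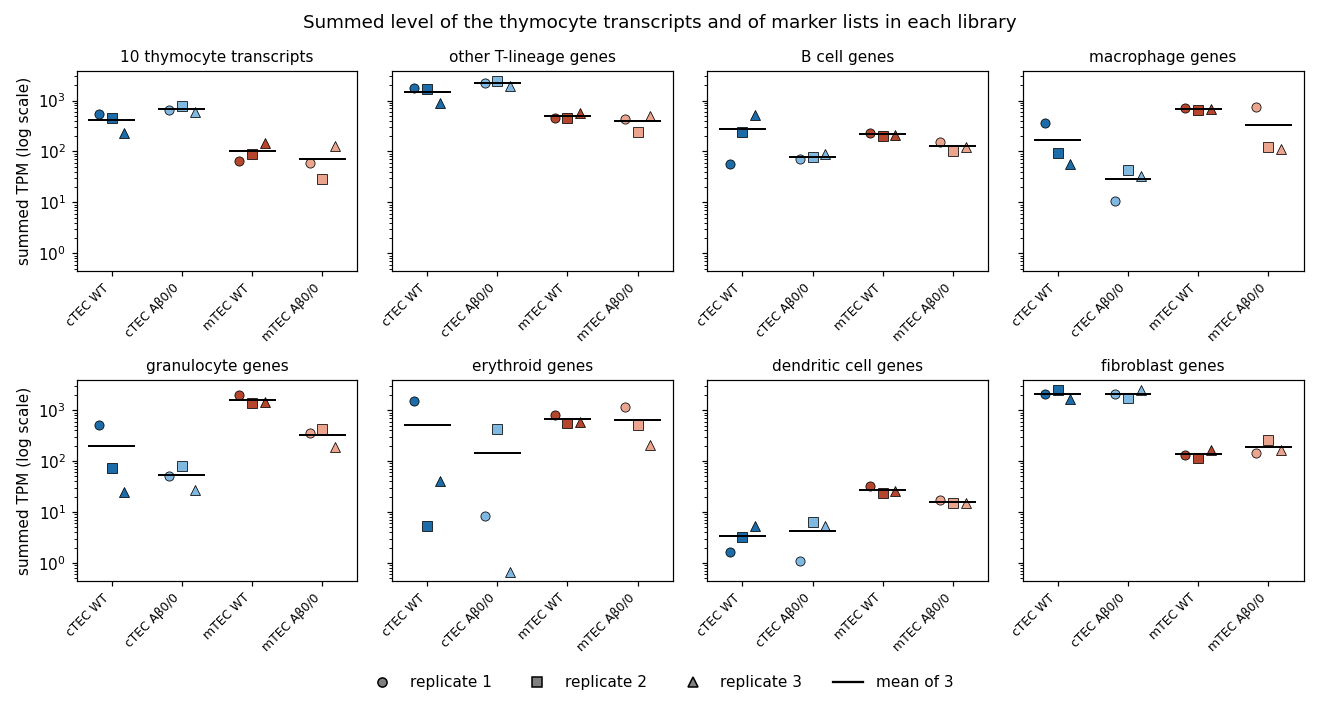
Summed TPM on a log axis for the 10 thymocyte transcripts, the other T-lineage genes and 6 marker lists, with 1 point per library (circle, square and triangle for replicates 1, 2 and 3) and a line at the mean of 3. Both T cell panels are higher in cTEC than in mTEC, the fibroblast panel likewise, and the macrophage, granulocyte and dendritic panels are higher in WT mTEC than in WT cTEC.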

How the data were processed

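RNA of 12 sorted libraries was sequenced on an Illumina instrument after SMART-Seq v4 amplification. Per the labels and the study's methods, the authors demultiplexed with bcl2fastq 2.20.0, trimmed with Trim Galore and quantified with Kallisto 0.43. The deposited transcript files hold estimated counts and TPM, and the deposited gene table holds regularized log2 values that the authors made with DESeq2. Estimated counts of the 107987 of 109282 transcripts that matched GENCODE M21 (GRCm38) were summed to genes and rounded. The unmatched transcripts held 0.45% to 0.512% of counts and were left out. Genes that pass filterByExpr were tested with edgeR 4.0.16 (quasi-likelihood, TMM, Benjamini-Hochberg adjustment over all genes tested) in R 4.3.3, on the groups compared, and on all 12 libraries for the interaction. DESeq2 1.42.0, other scaling and filters, a replicate block and leaving out each library were alternatives. The fit was tested on simulated data.

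The 10 genes and all gene lists were chosen with earlier results of these data known. Named genes were the 10, fixed T-lineage genes (among them Ptprc, Cd3d, Trac, Trbc1, Trbc2, Ccr7 and Zbtb7b) and, per comparison, at most 8 listed genes past the threshold with the largest difference, and transcripts at 5% or more of a gene. Some genes that this rule names are not reported here. Nothing says more of the pools than that they were separate sorts, and p-values measure the spread between them. The study lists cTEC and mTEC of one pool together, so their numbers pair. Their deviations correlated at 0.255, 0.027 and 0.111 in WT and 0.265, 0.117 and 0.0434 in Aβ0/0.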

Additional observations from a re-analysis of the deposited data

Results flagged for a closer look

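Tcf7, a transcription factor of early T cell development, differed between genotypes in opposite directions in the subsets without overlap. In CPM it was at 228, 212 and 49.3 in WT cTEC and at 290, 267 and 251 in Aβ0/0 cTEC. WT mTEC held 59.9, 49.7 and 58.3 CPM, and Aβ0/0 mTEC 35.6, 3.55 and 36.4 CPM. The interaction of subset and genotype was -1.92 on the log2 scale (SE 0.94) and did not pass the test (edgeR, unadjusted p = 0.0636, adjusted p = 0.745). On the TPM scale the cTEC genotypes overlapped. Groups of 3 are too small for a test of single outlying libraries.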

How the results depend on the processing

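None of the 10 transcripts reversed a called direction under the alternatives, and the log2 ratio of their summed level stayed within the spread between libraries in each comparison: -0.97 to -0.45 around -0.73 (WT minus Aβ0/0 in cTEC), 0.12 to 1.19 around 0.50 (mTEC), 1.33 to 2.39 around 2.03 (cTEC minus mTEC in WT) and 2.54 to 3.96 around 3.26 (Aβ0/0). Counts of called genes moved far more, and the cause was not tested. Between genotypes in cTEC, 3 genes became 7 with no filter, 61 with DESeq2, 0 with the replicate block and 16 on all 12 libraries, with 1 to 3 when leaving out 1 library, and the T-lineage count of 0 became 2 with DESeq2. In mTEC, 1054 genes became 27 with no filter, 11 at a mean of at least 10 counts, 1782 with DESeq2, 0 with the replicate block and 20 on all 12 libraries, with 0 to 2377 when leaving out 1 library. There the T-lineage count of 0 became 3 with DESeq2 and 0 to 4 when leaving out 1 library, and the share of calls higher in WT was 94% with edgeR and 76% with DESeq2. That share was lower in other fits, with 18 genes higher and 9 lower in WT with no filter. It was 5 and 6 at a mean of at least 10 counts and 10 and 10 on all 12 libraries. For cTEC against mTEC in WT, 4997 genes became 2760 on all 12 libraries and 3395 to 7572 when leaving out 1 library, and 20 T-lineage genes became 9 on all 12 libraries and 9 to 28 when leaving out 1. In Aβ0/0, 878 genes became 2042 with DESeq2, 1819 on all 12 libraries and 338 to 456 when leaving out 1, and 10 T-lineage genes became 24 with DESeq2, 2 with the replicate block, 16 on all 12 libraries and 1 to 6 when leaving out 1. For the interaction, 2 genes became 282 with DESeq2, 0 with the replicate block and 1 to 18 when leaving out 1 library, and the T-lineage count of 0 became 2 with DESeq2. With the block in WT, 17 T-lineage genes higher in cTEC became 10, and among the 10 in Aβ0/0 the count of 3 became 1. The block moved no other count of calls among the 10 or the T-lineage genes by over 1.5 times. That WT and Aβ0/0 libraries of a number were sorted together is not stated. Their deviations correlated at 0.276, -0.0822 and 0.0328 in cTEC, where 3 of 6 libraries correlated best with their own number, and at 0.286, 0.114 and 0.0632 in mTEC, where 5 of 6 did. Where a library leaves a group with fewer pools, the rest are assumed to vary alike. With 3 pools a group, values at or under 3 counts, as 1 of the 10 had in each Aβ0/0 mTEC library, set no level.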
